A study of Homo sapiens with 6 samples.

Results

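The miR-17-92 cluster was measured here as 8 mature microRNAs (miRNAs) in BEAS-2B, an immortalised human bronchial epithelial cell line. The members were chosen by name, as products of the MIR17HG transcript, and all 8 of the 8 names were found among 1727 known miRNA names, with reads in each of the 6 libraries. Per the labels, 3 libraries came from cells with PRMT1 over-expression (plasmid pcDNA-PRMT1) and 3 from control cells (plasmid pcDNA3.1), with 48 h of treatment in both groups. PRMT1 is a protein arginine methyltransferase, and the comparison asked how the cells' miRNAs respond to it. The tables hold small RNA, so the level of PRMT1 itself was not measured. Whether each library came from a culture of its own is not in the labels. The p-values therefore set the group difference against the scatter of these 6 libraries only, and that scatter may be technical.

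MIR17HG is a long non-coding RNA gene whose primary transcript carries 6 hairpins. DROSHA releases the hairpins, DICER cuts each into a duplex, and usually 1 arm of the duplex is kept by an Argonaute protein and used to silence messages that pair with its seed, bases 2 to 8. The locus is switched on by MYC and E2F factors and is amplified or over-expressed in many cancers. In mouse lung it is needed for normal development, and its over-expression in lung epithelium keeps progenitor cells dividing.

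The mature sequences are shown because the results turn on which members share a seed. All 8 matched RefSeq (build GRCh38.p14), and they run 5′ to 3′ with the seed in capitals. They follow the order of the hairpins.
hsa-miR-17-5p: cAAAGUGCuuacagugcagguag
hsa-miR-17-3p: aCUGCAGUgaaggcacuuguag
hsa-miR-18a-5p: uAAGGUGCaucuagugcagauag
hsa-miR-18a-3p: aCUGCCCUaagugcuccuucugg
hsa-miR-19a-3p: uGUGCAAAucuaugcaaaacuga
hsa-miR-20a-5p: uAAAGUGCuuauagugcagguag
hsa-miR-19b-3p: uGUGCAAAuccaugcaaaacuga
hsa-miR-92a-3p: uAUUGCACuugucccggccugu

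The 8 members carry 6 seeds. MiR-17-5p and miR-20a-5p share a seed and differ at 2 bases, C1U and C12U, counted from the 5′ end with the base of miR-17-5p first. MiR-19b-3p and miR-19a-3p share a seed and differ at 1 base outside it, C11U with the base of miR-19b-3p first. The seed of miR-18a-5p differs from that of miR-17-5p by A4G. The lengths are 22 or 23 nt. The first base is U in 5 of the 8 members, A in miR-17-3p and miR-18a-3p, and C in miR-17-5p.

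The 6 hairpins lie within 787 nt on the plus strand, at chr13:91350605-91351391 (GRCh38.p14), starting 2918 nt from the start of MIR17HG at chr13:91347687-91354577. They are exonic in 2 and intronic in 1 of the 3 MIR17HG transcripts of GENCODE release 29. The order along the transcript is MIR17, MIR18A, MIR19A, MIR20A, MIR19B1 and MIR92A1, with gaps of 35 to 92 nt between neighbours. Mature miR-19b-3p and miR-92a-3p have an identical copy on chromosome X, at chrX:134169683-134169705 and chrX:134169544-134169565 on the minus strand. The reads of these 2 names therefore cannot be assigned to MIR17HG by their sequence.

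Total counts per library ran from 23.95 M to 25.79 M, of which 11.54 M to 16.42 M were known miRNAs. The epithelial miRNAs used as markers, 7 of 7 listed in the tables, summed to 8000 to 8880 CPM in PRMT1 and 7750 to 10100 CPM in control libraries. Of these, miR-205-5p and miR-203a-3p stayed between 2.64 and 8.78 CPM, miR-141-3p between 13.9 and 26.2 CPM and miR-200c-3p between 40.4 and 61.6 CPM. Most of the sum came from miR-200a-3p, miR-200b-3p and miR-429. MiRNAs used as blood cell markers summed to 73.4 to 99.6 CPM in PRMT1 and 75.5 to 131 CPM in control libraries, and the liver marker miR-122-5p stood at 0.586 to 1.48 CPM. Endothelial markers summed to 1670 to 2290 CPM in PRMT1 and 1780 to 2070 CPM in control libraries, mostly miR-126-3p, and neural markers to 183 to 293 CPM in PRMT1 and 196 to 240 CPM in control libraries. Fibroblast or smooth muscle markers summed to 23.0 to 34.8 CPM in PRMT1 and 23.2 to 30.6 CPM in control libraries, and muscle markers to 9.17 to 12.6 CPM in PRMT1 and 9.98 to 13.8 CPM in control libraries. The ranges of each list overlapped between the groups, and the part of other cell types in the members' values was not tested. Control library 2 stood apart, with 66.04% of its known miRNA counts in miR-21-5p against 49.38% to 59.06% in the other libraries. Levels below are counts per 1000000 (CPM) of known miRNA counts after TMM scaling, in which that library had a factor of 0.761 and the others 0.986 to 1.11.

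The 8 members differed far more from each other than between the groups, and their broad order was the same in PRMT1 and control libraries. The members are 22 or 23 nt long, so length differs little between them. Whether their different sequences were read with equal efficiency was not tested, so the order is one of read counts. Over the 6 libraries miR-92a-3p averaged 9893 CPM, rank 15 among all known miRNAs. MiR-20a-5p (1165 CPM), miR-19b-3p (980.2 CPM) and miR-17-5p (834.7 CPM) formed a second tier, at ranks 57, 64 and 66. MiR-18a-5p followed at 259.8 CPM. Its hairpin lies next to MIR17 on the transcript. MiR-17-3p (22.96 CPM), miR-19a-3p (20.88 CPM) and miR-18a-3p (13.2 CPM) were lowest, at ranks 262, 272 and 309. MiR-92a-3p exceeded miR-20a-5p in 6 of 6 libraries, by 6.15 to 11.8 times. Neighbours within the second tier did not keep their order, since miR-20a-5p exceeded miR-19b-3p in 5 of 6 libraries and miR-19b-3p exceeded miR-17-5p in 4 of 6. The ranges of miR-17-5p and miR-18a-5p did not overlap, nor did those of miR-18a-5p and miR-17-3p. The range of miR-19a-3p overlapped those of miR-17-3p and miR-18a-3p, its neighbours in the order.

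**Figure D1:**
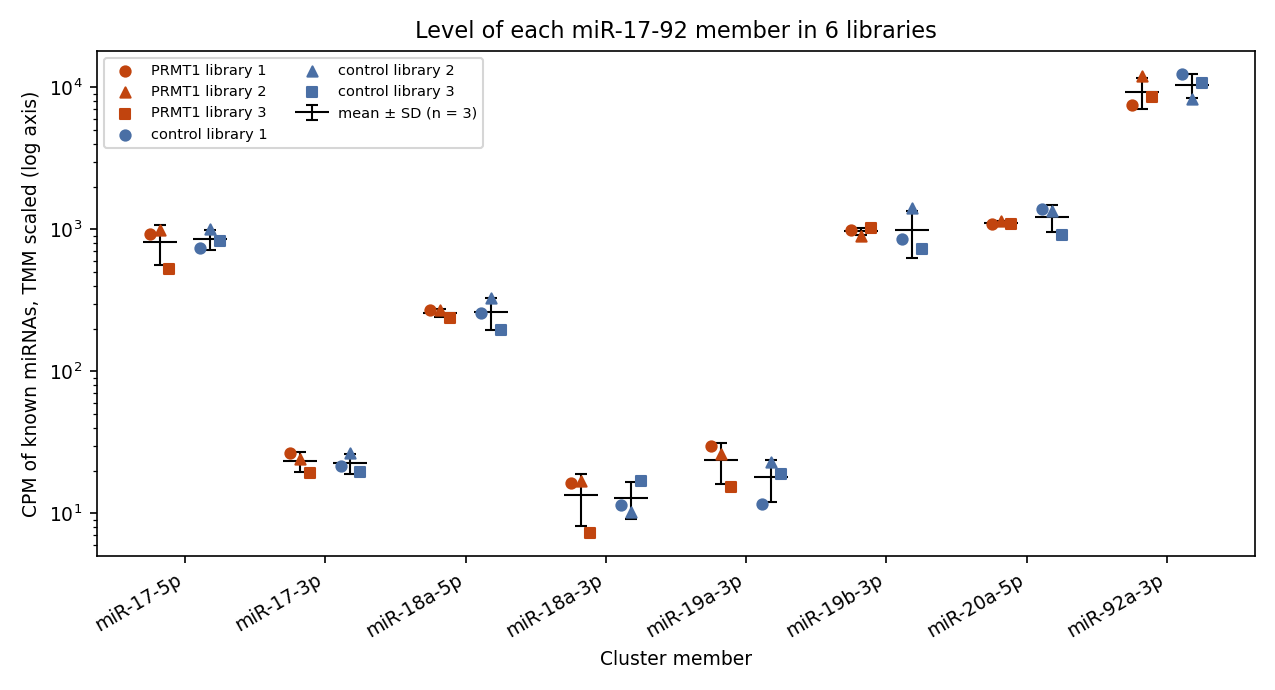
Level of each member in CPM of known miRNAs on a log axis, with 1 point per library, PRMT1 libraries left of control libraries, and bars at the mean ± SD (n = 3). The groups overlap for every member, while the members range from 13.2 CPM for miR-18a-3p to 9893 CPM for miR-92a-3p on average.

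No member passed the threshold between PRMT1 and control libraries, 0 of 8 at a Benjamini-Hochberg adjusted p of 0.05 with the quasi-likelihood test of edgeR, where 0% of the 668 tested known miRNAs passed. No member reached an unadjusted p under 0.05 either, against 36 of the 668 tested names (5.39%), and with DESeq2 and limma-voom the count of members past the threshold was also 0. DESeq2 was run on all 1727 names and passed 4 of them, while limma-voom passed 0 of the 668. In 0 of 8 members did the groups separate without overlap, as against 10.2% of all tested names, 5.39% with PRMT1 higher and 4.79% with PRMT1 lower. The members' log2 fold changes ran from -0.16 to 0.41 with a median of -0.02, beside a median of 0.04 over all tested names. Of these, 3 lay above and 5 below 0. The signs of miR-17-5p, miR-17-3p, miR-18a-5p, miR-18a-3p and miR-19b-3p changed with the scaling or when 1 library was left out.

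MiR-92a-3p, which restrains vessel growth through the integrin subunit ITGA5 in endothelial cells, was the most abundant member. As hsa-miR-92a-3p it stood at 7523, 11990 and 8498 CPM in PRMT1 libraries 1 to 3, against 12310, 8313 and 10720 CPM in control libraries 1 to 3. Control library 1 was highest and PRMT1 library 1 lowest, and the groups overlapped. The means were 9338 ± 2351 CPM in PRMT1 and 10450 ± 2011 CPM in control libraries (SD, n = 3 each). The edgeR log2 fold change was -0.16 (SE 0.22, 95% interval -0.65 to 0.33, adjusted p = 0.90), and it stayed below 0 when any 1 library was left out, at -0.42 to -0.04.

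MiR-20a-5p and miR-17-5p limit E2F1 and the cell cycle inhibitor CDKN1A, and have the same seed. Of these, hsa-miR-20a-5p was at 1096, 1151 and 1098 CPM in PRMT1 libraries, against 1385, 1351 and 910.1 CPM in control libraries. The PRMT1 libraries lay within the range of the control libraries, with a coefficient of variation of 2.8% in PRMT1 and 21.8% in control libraries. Its edgeR log2 fold change was -0.12 (SE 0.22, 95% interval -0.61 to 0.36, adjusted p = 0.931), and -0.35 to -0.03 when 1 library was left out. The other, hsa-miR-17-5p, was at 933.2, 985.9 and 526.2 CPM in PRMT1 libraries, against 736.8, 1002 and 823.8 CPM in control libraries. PRMT1 library 3 was the lowest of the 6, and the other libraries of both groups were intermixed. Its edgeR log2 fold change was -0.07 (SE 0.27, 95% interval -0.68 to 0.54, adjusted p = 0.983), and it turned to 0.16 without PRMT1 library 3 and to 0.045 without control library 2.

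MiR-19a-3p and miR-19b-3p carry much of the oncogenic activity of the cluster in mouse lymphoma models. The abundant member, hsa-miR-19b-3p, was at 983.8, 900.7 and 1015 CPM in PRMT1 libraries, against 850.5, 1404 and 726.5 CPM in control libraries. Control library 2 was the highest of the 6 and control library 3 the lowest, so that the PRMT1 libraries fell inside the control range. Its edgeR log2 fold change was -0.04 (SE 0.27, 95% interval -0.63 to 0.55, adjusted p = 0.983), and it turned to 0.28 when control library 2 was omitted. The scarce member, hsa-miR-19a-3p, was at 30.06, 26.23 and 15.22 CPM in PRMT1 libraries, against 11.6, 23.13 and 19.06 CPM in control libraries. PRMT1 libraries 1 and 2 were above all control libraries, and PRMT1 library 3 was below control libraries 2 and 3. This was the member with the largest log2 fold change, 0.41 (SE 0.35, 95% interval -0.36 to 1.19, adjusted p = 0.800). Omitting control library 1 made it 0.17, and omitting PRMT1 library 3 made it 0.65.

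The last of the 5p members, hsa-miR-18a-5p, whose hairpin is bound by the RNA-binding protein HNRNPA1 during processing, was at 270.0, 268.7 and 238.5 CPM in PRMT1 libraries, against 257.0, 328.6 and 196.1 CPM in control libraries. Again the PRMT1 libraries lay inside the control range, between control library 2 at the top and control library 3 at the bottom. The edgeR log2 fold change was -0.01 (SE 0.25, 95% interval -0.58 to 0.56, adjusted p = 0.991), and it ran from -0.23 to 0.17 when 1 library was left out.

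The remaining 2 members are the less abundant arms of the first 2 hairpins. Of these, hsa-miR-17-3p had counts of 408, 293 and 229 in PRMT1 libraries, against 295, 333 and 253 in control libraries, and 19.15 to 26.55 CPM in PRMT1 against 19.68 to 26.65 CPM in control libraries. Its edgeR log2 fold change was 0.04 (SE 0.25, 95% interval -0.52 to 0.60, adjusted p = 0.983). The other, hsa-miR-18a-3p, had counts of 251, 207 and 87 in PRMT1 libraries, against 155, 127 and 219 in control libraries. PRMT1 library 3 was lowest for both arms of MIR17 and for miR-18a-3p. The edgeR log2 fold change of miR-18a-3p was 0.08 (SE 0.37, 95% interval -0.76 to 0.92, adjusted p = 0.983). Counting error at the lowest count of 87 was 10.7%, and the coefficient of variation between libraries was 40.2% in PRMT1 and 28.5% in control libraries.

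**Figure D2:**
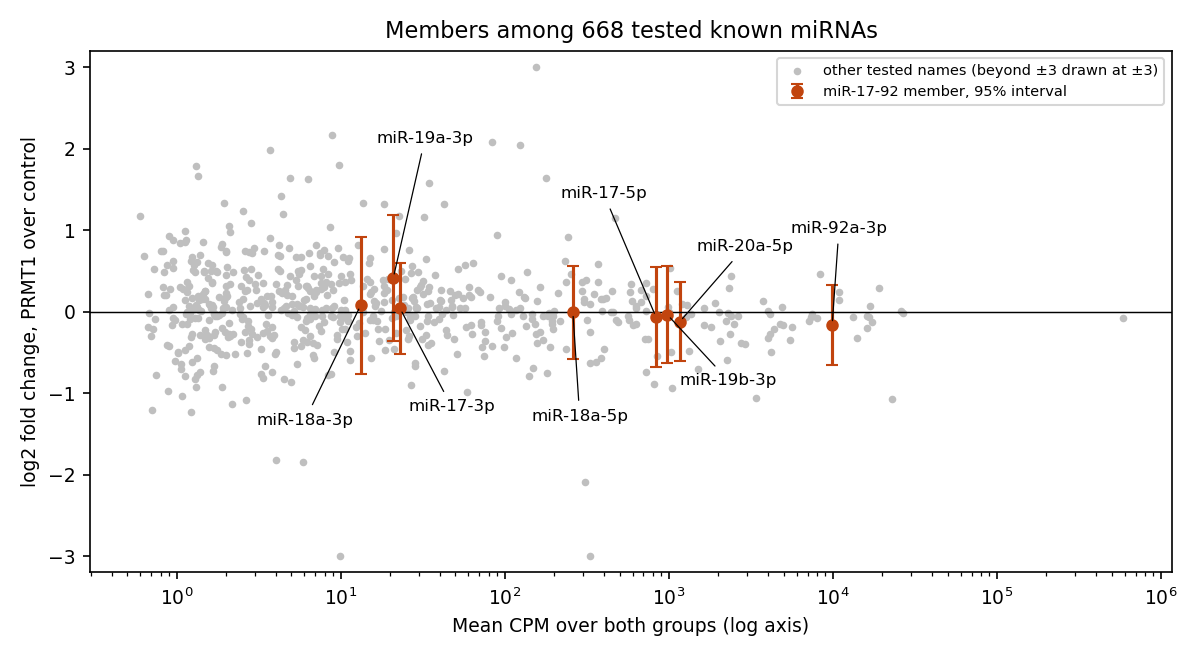
Log2 fold change, PRMT1 over control, against the mean CPM of both groups on a log axis, for the 8 members with their 95% intervals and the other tested known miRNAs as grey points, drawn at -3 or 3 where they lie beyond. Each member's interval includes 0, and the largest value is the 0.41 of miR-19a-3p.

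The spread between libraries within a group differed among the members. The pooled SD of log2 CPM was smallest for miR-17-3p (0.23), miR-20a-5p (0.24) and miR-18a-5p (0.27), and largest for miR-19a-3p (0.52) and miR-18a-3p (0.56). For tested names within 2-fold of the level of miR-92a-3p, 18 in all, the median was 0.20, and miR-92a-3p itself was at 0.32. For the 41 names near miR-20a-5p the median was 0.32. MiR-17-5p (0.389 against 0.333) and miR-19b-3p (0.357 against 0.323) were also above the median of names near their level. So were miR-19a-3p (0.517 against 0.346) and miR-18a-3p (0.562 against 0.395). Below it, as was miR-20a-5p, were miR-17-3p (0.233 against 0.354) and miR-18a-5p (0.273 against 0.344). The 3 members miR-18a-5p, miR-19b-3p and miR-20a-5p had SDs of 0.10, 0.09 and 0.04 in PRMT1 libraries, and 0.37, 0.50 and 0.34 in control libraries. In miR-17-5p, miR-18a-3p and miR-92a-3p the PRMT1 libraries had the larger SDs, 0.502, 0.691 and 0.349, against 0.225, 0.392 and 0.287 in control libraries. Those of miR-17-3p (0.242 in PRMT1, 0.223 in control libraries) and miR-19a-3p (0.519 and 0.514) were close. The difference in spread was not tested.

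Together the 8 members took 1.159%, 1.57% and 1.125% of the known miRNA counts in PRMT1 libraries, against 1.713%, 0.9479% and 1.496% in control libraries. Control library 2 had the lowest share and control library 1 the highest. The log2 ratio of the mean sums after TMM scaling was -0.14, and it was -0.31 when PRMT1 library 2 was omitted. Omitting control library 1, PRMT1 library 1, PRMT1 library 3 and control library 2 in turn made it -0.044, -0.046, -0.075 and -0.209. The sum was 12550 ± 2451 CPM in PRMT1 and 13820 ± 1597 CPM in control libraries (SD, n = 3 each), with overlap. Without miR-92a-3p the sum was 3217 ± 257.3 CPM in PRMT1 and 3377 ± 722.3 CPM in control libraries.

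Among the 8 members miR-92a-3p took most of the reads. Its share of the counts of the 8 members was 69.1%, 78.0% and 74.4% in PRMT1 libraries, against 79.0%, 66.7% and 79.8% in control libraries. PRMT1 library 1 and control library 2 had the lowest shares. The groups overlapped in the shares of the second tier. MiR-20a-5p took 9.06% ± 1.38 in PRMT1 and 8.84% ± 2.03 in control libraries (SD, n = 3 each, as for the next shares). MiR-19b-3p took 7.93% ± 1.80 in PRMT1 and 7.38% ± 3.37 in control libraries. MiR-17-5p took 6.53% ± 1.99 in PRMT1 and 6.30% ± 1.66 in control libraries. The share of the 5p arm of MIR18A was smaller. MiR-18a-5p took 2.11% ± 0.367 in PRMT1 and 1.92% ± 0.632 in control libraries. Each of the other 3 took at most 0.276% in any library, and for all 8 members the groups overlapped. Exact Clopper-Pearson 95% intervals cover counting error only. That of miR-92a-3p was narrow beside its spread, at 68.9% to 69.4% in PRMT1 library 1. For miR-17-3p the interval took up more of the spread, at 0.139% to 0.176% in PRMT1 library 2, where its shares ran from 0.139% to 0.244% over the libraries. That interval did not meet the 0.221% to 0.269% of PRMT1 library 1.

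**Figure D3:**
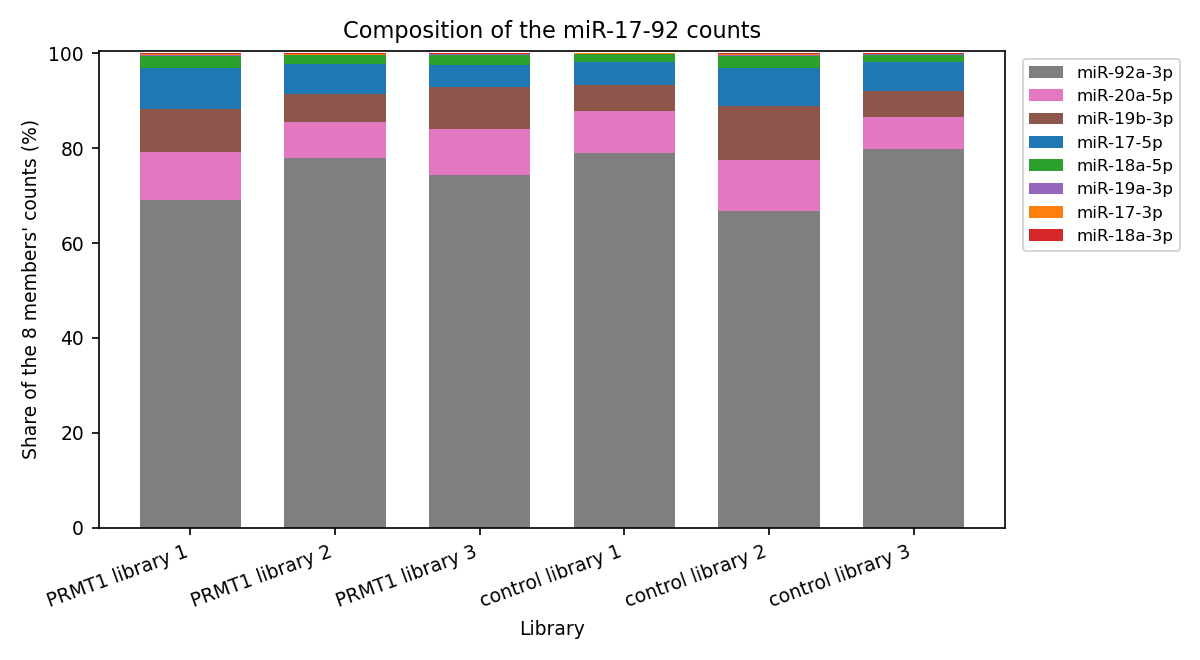
Share of each member in the counts of the 8 members, as stacked bars in percent, with the 3 PRMT1 libraries left of the 3 control libraries. MiR-92a-3p takes 66.7% to 79.8% in every library, and miR-20a-5p, miR-19b-3p and miR-17-5p take most of the rest.

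MiR-19a-3p and miR-19b-3p had very different counts although their mature sequences differ by the single base C11U. Their hairpins are shown with the mature miR-19 arm in capitals, to show how 1 near-identical arm sits in different hairpins.
MIR19B1: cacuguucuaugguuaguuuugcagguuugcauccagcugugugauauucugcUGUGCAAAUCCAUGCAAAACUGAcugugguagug
MIR19A: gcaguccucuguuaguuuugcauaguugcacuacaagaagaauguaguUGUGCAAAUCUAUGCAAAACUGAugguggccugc
MIR19B1 lies at chr13:91351192-91351278 and MIR19A at chr13:91350891-91350972, both on the plus strand of GRCh38.p14. The count of miR-19b-3p was 32.7, 34.3 and 66.7 times that of miR-19a-3p in PRMT1 libraries, against 73.3, 60.7 and 38.1 times in control libraries. PRMT1 library 3 and control libraries 1 and 2 had the high ratios. How reads that match both names were divided is not given in the sources used here, and the part of the chromosome X copy of miR-19b-3p was not tested. The log2 ratio was 5.39 ± 0.57 in PRMT1 and 5.79 ± 0.49 in control libraries (SD, n = 3 each), a difference of -0.39 with a two-sided exact permutation p of 0.3. It was -0.72 when PRMT1 library 3 was omitted, -0.66 when control library 3 was, and -0.19 to -0.32 when any other library was.

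The other ratios between members were compared in the same way, 5 with this one, and for each the groups overlapped. With 3 libraries in each group the exact p cannot fall below 0.1, so that no ratio could pass, and the Benjamini-Hochberg value was 1.0 for each. MiR-20a-5p had 1.17, 1.17 and 2.09 times the count of miR-17-5p in PRMT1 libraries, against 1.88, 1.35 and 1.10 times in control libraries. The mean log2 ratio was 0.51 ± 0.48 in PRMT1 and 0.50 ± 0.39 in control libraries (exact permutation p = 1.0, n = 3 each). MiR-92a-3p, whose reads may come from either of its copies, was at 8.06, 12.2 and 16.1 times the count of miR-17-5p in PRMT1 libraries, against 16.7, 8.29 and 13 times in control libraries (difference in log2 -0.06, exact permutation p = 0.7). PRMT1 library 3 and control library 1 stood at the high end of 3 of these ratios, those of miR-20a-5p and miR-92a-3p over miR-17-5p and of miR-19b-3p over miR-19a-3p.

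In MIR17 and MIR18A the 5p arm was the more read arm in every library. The 5p to 3p ratio of miR-17 was 35.2, 40.9 and 27.5 in PRMT1 libraries, against 34, 37.6 and 41.9 in control libraries (difference in log2 -0.15, exact permutation p = 0.6). That of miR-18a was 16.5, 15.8 and 32.8 in PRMT1 libraries, against 22.6, 32.3 and 11.5 in control libraries (difference in log2 0.01, exact permutation p = 0.9). Over the 6 libraries the ratio of miR-18a ran from 11.5 to 32.8, and that of miR-17 from 27.5 to 41.9.

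**Figure D4:**
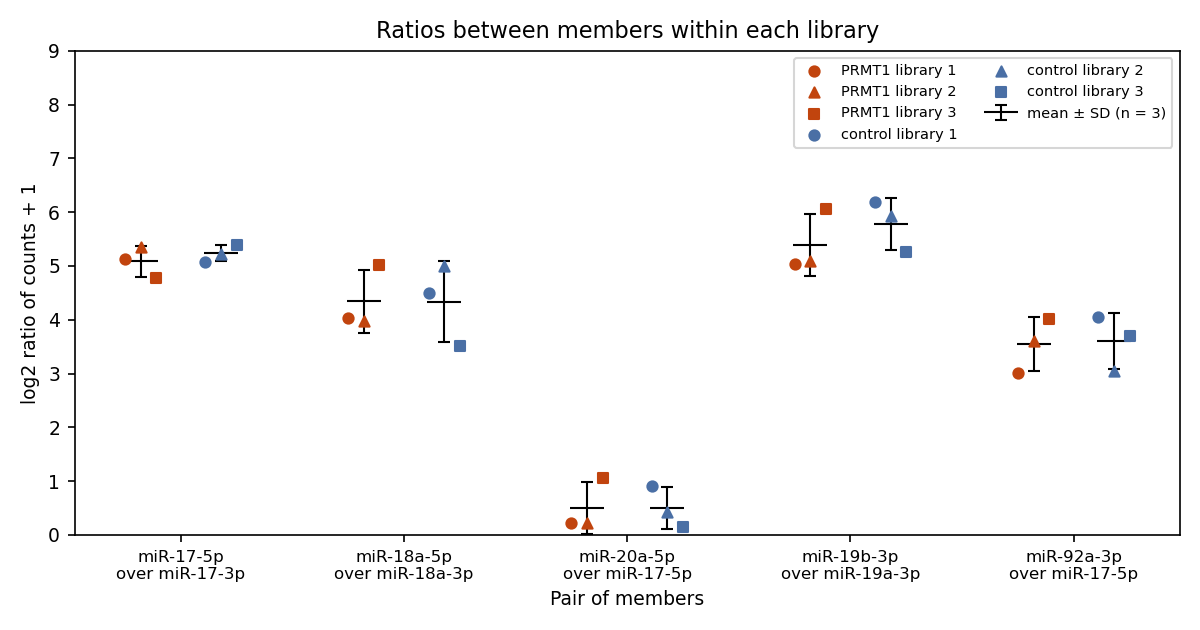
Log2 ratio of counts between pairs of members, each count with 1 added, with 1 point per library, PRMT1 left of control, and bars at the mean ± SD (n = 3). The groups overlap for each of the 5 pairs, and miR-19b-3p lies 32.7 to 73.3 times above miR-19a-3p.

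The other arms of the remaining 4 hairpins were rare. They took 0.19% to 0.748% of the reads of both arms for miR-20a-3p, 0.255% to 0.662% for miR-19b-1-5p and 0.081% to 0.197% for miR-92a-1-5p over the 6 libraries, with 0 to 2 reads of miR-19a-5p. By comparison the 3p arms that are members took 2.33% to 3.51% in MIR17 and 2.96% to 7.99% in MIR18A. The groups overlapped for every hairpin. Only miR-92a-1-5p among these rare arms averaged above 10 CPM, at 16.62 ± 5.77 CPM in PRMT1 and 14.08 ± 3.56 CPM in control libraries (SD, n = 3 each). Of the 4 rare arms, 3 were tested and 0 passed the threshold in either direction.

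The chromosome X cluster, a paralogue of miR-17-92, had few reads under names of its own. Its most read name in the tables, miR-363-3p, had 92, 72 and 100 reads in PRMT1 libraries, against 58, 68 and 58 in control libraries, and averaged 6.757 ± 1.392 CPM in PRMT1 and 4.737 ± 0.623 CPM in control libraries (SD, n = 3 each). For a name with 0 reads, up to 3 reads could have been missed, or 0.183 to 0.26 CPM by library before TMM scaling, counting error only. Its members that are nearest to those of MIR17HG are shown for their small base differences, with the seed in capitals.
hsa-miR-106a-5p: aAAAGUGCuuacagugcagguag
hsa-miR-20b-5p: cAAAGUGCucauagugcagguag
hsa-miR-18b-5p: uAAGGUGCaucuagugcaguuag
MiR-106a-5p differs from miR-17-5p by C1A and had 2 to 9 reads per library, against 6291 to 14343 of miR-17-5p. MiR-18b-5p differs from miR-18a-5p by A20U and had 1 to 9 reads, against 2521 to 4150 of miR-18a-5p. MiR-20b-5p differs from miR-20a-5p by U1C and U10C and had 18 to 35 reads, against 11699 to 18869 of miR-20a-5p. The arms opposite the chromosome X copies of miR-19b and miR-92a, miR-19b-2-5p and miR-92a-2-5p, had no row in the 6 tables, read here as a count of 0. Those opposite the MIR17HG copies had 31 to 73 reads (miR-19b-1-5p) and 136 to 282 reads (miR-92a-1-5p). Of the 10 names of this cluster, 5 were listed in the tables and 2 tested, and 0 passed in either direction.

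The third paralogous cluster, in an intron of MCM7, was the main other source of reads with the miR-17 seed. Names were grouped by the seed of their RefSeq sequence, which 1541 of the 1727 names had. Of 7 names with the seed of miR-17-5p, miR-93-5p took 57.4%, 62.7% and 67.8% of the counts in PRMT1 libraries, against 70.9%, 66.8% and 70.3% in control libraries. MiR-17-5p and miR-20a-5p together took 39.1%, 35.3% and 30.7% in PRMT1 libraries, against 28.1%, 31.8% and 27.9% in control libraries. PRMT1 libraries 1 and 2 had the highest shares, and PRMT1 library 3 lay below control library 2. The share of miR-20a-5p alone was 21.1%, 19% and 20.8% in PRMT1 libraries and 18.4%, 18.3% and 14.6% in control libraries, without overlap. That of the rare miR-20b-5p did not overlap either, while the other names with this seed overlapped. By CPM miR-20a-5p overlapped, with means of 1115 in PRMT1 and 1215 in control libraries, and 10.2% of all tested names did not overlap. These are shares of a sum in which miR-93-5p stood at 3452 ± 423.5 CPM in PRMT1 and 4886 ± 493.5 CPM in control libraries (SD, n = 3 each). No test was run on these shares. MiR-106b-5p added 0.952% to 3.41%.

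For the other seeds the members' names held most of the reads, where miR-92a-3p and miR-19b-3p are names shared with their chromosome X copies. MiR-92a-3p took 73.2%, 77.2% and 72.5% of the counts of the 5 names with its seed in PRMT1 libraries, against 79.2%, 75.3% and 71.1% in control libraries. MiR-92b-3p was next with 2011 ± 397.3 CPM in PRMT1 and 2011 ± 726.9 CPM in control libraries. It was followed by miR-25-3p of the MCM7 cluster, at 861.4 ± 79.26 CPM in PRMT1 and 1211 ± 112.1 CPM in control libraries, and miR-32-5p at 293.4 ± 98.27 CPM in PRMT1 and 212.8 ± 33.37 CPM in control libraries (SD, n = 3 each). The seed of miR-19 occurred in the 2 members alone among the names with a sequence, and that of miR-18a-5p in miR-18b-5p besides, so that miR-18a-5p held 99.7% to 100% of the reads with its seed.

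**Figure D5:**
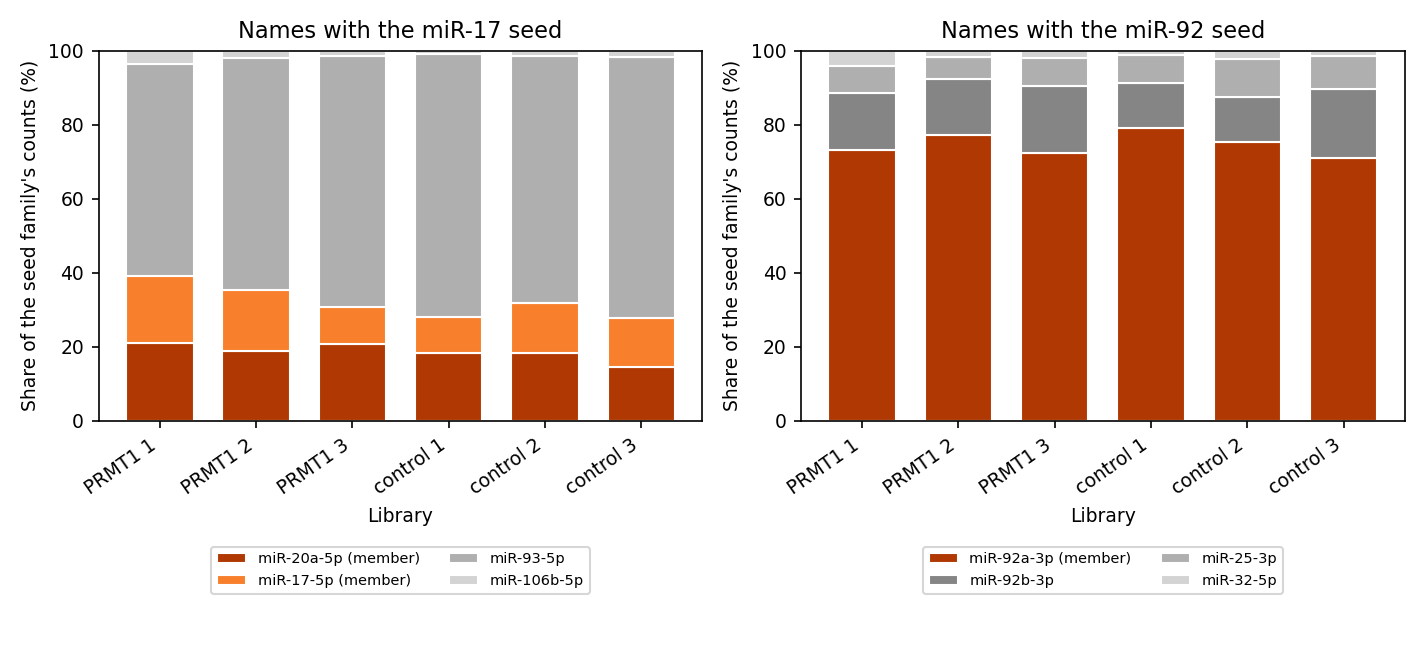
Share of each name in the counts of all names with the miR-17 seed (left) and the miR-92 seed (right), as stacked bars in percent, with cluster members in orange, other names in grey, and the 3 PRMT1 libraries left of the 3 control libraries. The rare miR-20b-5p, miR-106a-5p, miR-519d-3p and miR-363-3p are not drawn. MiR-93-5p, no member, takes 57.4% to 70.9% on the left, while the member miR-92a-3p takes 71.1% to 79.2% on the right.

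Over the 4 lists of other arms, paralogues and further names with the miR-92a seed, 17 of 23 names were listed in the tables and 13 were tested. Of these 0 passed the threshold in either direction, 10 lay above and 2 below 0, and the median log2 fold change was 0.24, beside 0.04 over all tested names. Those of the MCM7 cluster ran from -0.50 to 0.46 with a median of 0.04 over 6 tested names. In 3 of these 6 the groups did not overlap, with miR-93-5p and miR-25-3p at lower and miR-25-5p at higher CPM in PRMT1 libraries, and none passed the threshold. Over the 13 tested names the groups did not overlap in 4, the other being miR-363-3p, higher in PRMT1 libraries, where 10.2% of all tested names did not overlap. The less abundant arms of that cluster were lower in level by at least an order of magnitude than miR-25-3p and miR-93-5p. MiR-106b-3p stood at 54.06 ± 3.79 CPM in PRMT1 and 52.4 ± 3.58 CPM in control libraries, and miR-93-3p at 26.18 ± 7.97 CPM in PRMT1 and 25.41 ± 4.78 CPM in control libraries. MiR-25-5p stood at 13.22 ± 2.79 CPM in PRMT1 and 9.621 ± 0.643 CPM in control libraries (SD, n = 3 each). MiR-106b-5p was at 122.6 ± 50.58 CPM in PRMT1 and 94.06 ± 19.99 CPM in control libraries.

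Each table also lists Rfam precursor families, which hold the hairpins of the cluster together with those of its paralogues. The mir-17 family had 1488, 1289 and 896 reads in PRMT1 libraries, against 1221, 1361 and 1048 in control libraries, which is 3.72% to 4.33% of the summed counts of the members in that family. PRMT1 library 3, the lowest for miR-17-5p, was also the lowest here. The mir-92 family had 11356, 17359 and 10510 reads in PRMT1 libraries, against 13970, 12416 and 12804 in control libraries, 8.33% to 12.0% of the counts of miR-92a-3p. The mir-19 family had 162, 145 and 116 reads in PRMT1 libraries, against 107, 228 and 118 in control libraries, 0.911% to 1.29% of the counts of its members. The groups overlapped for all 3 families. The member counts leave out the mature reads of the paralogues, so these percentages set a whole family against a part of its names.

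The names whose profile over the 6 libraries was nearest to that of the members' sum were looked up among 154 other tested miRNAs of at least 100 CPM. The measure was the root mean square difference of log2 CPM, each profile centred on its own mean. The 5 nearest were miR-181b-5p (0.101), miR-1180-3p (0.152), miR-769-3p (0.170), miR-151a-5p (0.170) and miR-584-5p (0.174), where the median over the 154 was 0.337. MiR-181b-5p stood at 2300, 2662 and 2090 CPM in PRMT1 libraries, against 2920, 2525 and 2404 CPM in control libraries. Among the members themselves miR-92a-3p was at 0.099 and miR-20a-5p at 0.239, while the other 6 lay at 0.294 to 0.572. MiR-92a-3p makes up most of the sum by count. MiR-17-5p, at 0.341, lay close to the median of the 154 other names, and miR-19b-3p, at 0.415, above it. MiR-18a-3p (0.444) and miR-19a-3p (0.572) also lay above it. They averaged 13.2 and 20.88 CPM, below the 100 CPM asked of the other names, so that median is no like measure for them.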

How the data were processed

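Small RNA of BEAS-2B cells was sequenced by BGI on a BGI-500 instrument, and BGI filtered the reads, per the series' design text. Per the submitters' processing notes, the tools were HISAT, Bowtie2 and RSEM and the build was GRCh37.p13. Their roles, the treatment of reads with several matches and the use of strand are not given in the sources used here. An extraction text among the labels is that of a messenger RNA library, but every table lists small RNA classes. The deposited counts are whole reads per feature, not normalised. The deposited TPM values equalled counts per 1000000 (CPM) of the library total to within 0.005, with no length term, and served only for that check. Names absent from a table were taken as 0.

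The fit used the rows of class mature. Filtering with filterByExpr left 668 of 1727 names, holding 99.98% of the known miRNA counts, among them all 8 members. Libraries were scaled by TMM, and PRMT1 was set against control by robust quasi-likelihood fits of edgeR 4.0.16 in R 4.3.3, without a block, with Benjamini-Hochberg adjustment over all tested names and a threshold of 0.05. The SE is the log2 fold change divided by the root of F. Ratios used counts plus 1 and exact permutation tests (scipy 1.17.1). DESeq2 1.42.0 and limma 3.58.1 served as alternatives, and the fit was tested on simulated data. Replicates were not copies of one library, with a chi-square per degree of freedom of at least 339.4 between any pair over 605 names. Sequences and positions are from RefSeq on GRCh38.p14, not the build of the submitters' notes, and the tables give no positions for known miRNAs. All 8 members, paralogues of at least 10 CPM and the 5 nearest profiles were named by rule. The members, lists and rules were chosen with earlier results of these data known.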

Additional observations from a re-analysis of the deposited data

How the results depend on the processing

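The count of members past the threshold was 0 in the main test and in all 17 alternatives, as was that of the lists. Over all known miRNAs 0 passed, against 4 with DESeq2 and 9 with edgeR without a filter, none of them a member, and the cause was not tested. DESeq2 was also run on the 1727 names before that filter, so its count differs in both method and filter. Adding a replicate block gave 1 call, miR-378b, and leaving out each library gave 0 to 1 (miR-378e without PRMT1 library 1). Deviations from the group means correlated at -0.143, 0.177 and -0.149 between same-numbered libraries, and at -0.127 to 0.259 between differently numbered ones. With means of 3 libraries this cannot decide whether the numbers pair the samples, and the labels do not say. The block moved miR-18a-5p and miR-19b-3p to log2 fold changes of 0.021 and 0.020. Library size scaling gave 0.017 for miR-17-5p, 0.086 for miR-18a-5p and 0.078 for miR-19b-3p, and limma-voom 0.022 for miR-18a-5p and 0.019 for miR-19b-3p. MiR-17-3p was at -0.007 with RLE, -0.017 with upper quartile scaling and -0.004 with DESeq2. With all classes of rows it was at -0.094 and miR-18a-3p at -0.037, where the median of all known miRNAs was -0.09, against 0.04 in the main test. The cause was not tested.

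Leaving out each library gave log2 fold changes of -0.253 to 0.160 for miR-17-5p, -0.107 to 0.152 for miR-17-3p, -0.225 to 0.173 for miR-18a-5p, -0.147 to 0.368 for miR-18a-3p and -0.264 to 0.275 for miR-19b-3p. Differences in log2 ratio ran from -0.279 to 0.009 for miR-17-5p over miR-17-3p, -0.402 to 0.341 for the arms of miR-18a, -0.267 to 0.219 for miR-20a-5p over miR-17-5p, -0.339 to 0.204 for miR-92a-3p over miR-17-5p and -0.721 to -0.190 for miR-19b-3p over miR-19a-3p. MiR-19a-3p, miR-20a-5p and miR-92a-3p kept their sign in every alternative run. Without miR-19b-3p and miR-92a-3p in the sum, the difference in share, PRMT1 minus control, was 0.0808 percentage points for miR-17-3p, 0.765 for miR-18a-5p and 0.282 for miR-19a-3p, against 0.0231, 0.191 and 0.0595 with them. It turned to -0.54 for miR-17-5p and -0.608 for miR-20a-5p, against 0.232 and 0.228 with them, moves within 1 SD of the replicates. For miR-18a-3p it was 0.0202. Each share is larger in the smaller sum, so percentage points of both sums are not on one scale. MiR-18a-5p took 11.6% in PRMT1 and 10.8% in control libraries, against 2.11% and 1.92% with both names in the sum. The cause of the changes in sign was not tested. The log2 ratio of the members' summed CPM was -0.139, with -0.109 under library size scaling, -0.149 as CPM of all counts, and -0.310 to -0.044 when each library was left out. Depth limits the 3 lowest members most, while for the other 5 the counting error was at most 1.99%.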
